A study of Mus musculus with 4 samples.

Results

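The cardiomyocyte fraction is the heavy-cell pellet of dissociated mouse heart, written CM in the well annotation, and here it was compared between Mst1/2 knockout (KO) and wild-type (WT) animals. Its members were the wells whose annotation ended in CM and that held at least 10000 UMIs and 300 detected genes. A UMI is a molecular barcode, so that each UMI stands for 1 captured RNA molecule. Of 3990 wells kept over the whole series, 1133 belonged to this fraction and 2857 to the non-cardiomyocyte fraction (NCM). The 1133 wells came from 4 C57BL/6 animals, with 210 from WT1, 274 from WT2, 264 from KO1 and 385 from KO2. The labels give the genotypes as WT and as a knockout of both kinases, and they give neither the allele, the cell type in which the genes were removed, nor the age or any injury of the animals. Cells were parted by repeated slow centrifugation, and each well was sequenced from polyadenylated RNA. Both WT animals were on 1 chip and both KO animals on another, so that genotype and chip cannot be told apart in any value below. The question, from the title of the series, concerns MST1/2 as a drug target in myocardial infarction.

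MST1 and MST2 are the kinases at the top of the Hippo pathway, encoded by Stk4 and Stk3. With the adaptor SAV1 they activate the LATS kinases, which phosphorylate the co-activators YAP and TAZ and hold them in the cytoplasm. In the nucleus YAP and TAZ bind TEAD transcription factors, whose targets include Ccn1, Ccn2 and Ankrd1. In heart muscle the pathway restrains proliferation and growth. Cardiomyocytes under load return to part of the fetal programme, in which natriuretic peptides and fetal isoforms of contractile proteins are made.

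Total UMIs in the kept wells came to 31387293 for WT1, 46921538 for WT2, 24921664 for KO1 and 91963125 for KO2. The median well held 98066, 129606, 64408 and 209238 UMIs in the same order, and a median of 2746, 3039, 1538.5 and 3101 genes. KO1 was therefore the shallowest animal and KO2 the deepest. Mitochondrially encoded RNA made up 38.1%, 35.7%, 47.2% and 36.4% of the UMIs. That share was highest in KO1 and did not part the genotypes, with an exact permutation p of 0.667. Haemoglobin RNA made up 0.00189%, 0.00220%, 0.1005% and 0.263%, and here both KO animals lay above both WT animals. With 2 animals against 2, an exact two-sided permutation test over animals cannot give a p below 0.333. The 2 CM chips shared 60 cell barcodes, and empty control wells on them held a median of 140.5 UMIs. Nothing in the labels says whether the 2 animals of a genotype were handled separately, so p-values measure only the spread between these animals.

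Heart muscle cells made up about the same share of wells in both genotypes. Clustering of the wells and a marker list gave cardiomyocyte-like wells as 52.9% of WT1 (95% exact Clopper-Pearson interval 45.9 to 59.8), 63.5% of WT2 (57.5 to 69.2), 52.3% of KO1 (46.1 to 58.4) and 63.9% of KO2 (58.9 to 68.7). The mean difference between genotypes was -0.096 percentage points, with an exact permutation p of 1. It was -12.5 points when the CM wells were clustered alone, since 1 cluster that held many KO2 wells then stayed unnamed. These intervals cover counting error only. All 15 cardiomyocyte markers were detected in every animal, and they made up 10.02%, 11.4%, 6.04% and 9.98% of the UMIs of cardiomyocyte-like wells in WT1, WT2, KO1 and KO2. Within single libraries the leading genes of the class were Sln and Myl7, and its other markers were high in every class of the fraction. The class was therefore named against the wells of the whole series.

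Of the other classes in the pellet, the 3 largest parted the genotypes, though the design could call no difference of any size. Endothelial-like wells made up 16.2% and 12.04% of the WT animals and 23.9% and 22.6% of the KO animals. Macrophage-like wells made up 17.1% and 9.12% in WT and 8.71% and 5.45% in KO. Fibroblast-like wells made up 9.05% and 11.3% in WT and 6.44% and 4.42% in KO. For each of these 3 classes both KO animals lay on one side of both WT animals, with an exact permutation p of 0.333, the smallest the design allows. A level summed over all CM wells cannot tell fewer cells of a type from less RNA per cell, so each gene below was also summed over the cardiomyocyte-like wells alone.

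**Figure D1:**
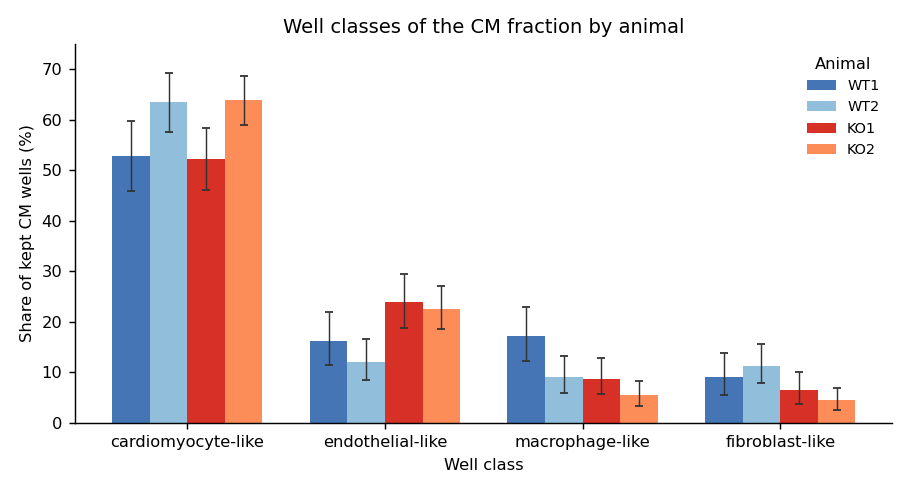
Share of kept CM wells in each of the 4 largest classes, in percent, for each animal, with exact 95% intervals for counting error as bars. Cardiomyocyte-like shares lie between 52.3% and 63.9% with the genotypes interleaved, and the endothelial-like shares of both KO animals stand above those of both WT animals.

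No single gene passed the test across all genes. Counts were summed per animal and tested with edgeR's quasi-likelihood test, and 0 of 14448 genes (0%) had an adjusted p under 0.05 in all CM wells, as had 0 of 12266 (0%) in cardiomyocyte-like wells. At an unadjusted p under 0.05, 275 genes were higher in KO (1.9%) and 230 were lower (1.59%) in all CM wells. In cardiomyocyte-like wells 348 were higher (2.84%) and 194 lower (1.58%). DESeq2 on the same sums called 33 genes higher and 21 lower in all CM wells, and 62 higher and 23 lower in cardiomyocyte-like wells. A fit that leaves out an animal has no replicate for that animal's genotype. Calls from such fits are not read as support for any gene. The values that follow are therefore descriptions of 4 animals, given in CPM (UMIs of a gene per 1000000 UMIs of the animal, after edgeR's TMM scaling), with the log2 difference KO minus WT and its standard error (SE).

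Fetal and hypertrophy genes lay on the KO side in this fraction. All 17 listed genes were tested in all CM wells, and all 17 differences were positive, as were 50.5% over all genes, with a median of 1.39 on the log2 scale. For 11 of the 17, both KO animals stood above both WT animals, against 15.8% of all genes tested, and these 11 also had an unadjusted p under 0.05, as had 3.5% of all genes in either direction. In cardiomyocyte-like wells 16 were tested and 16 differences were positive, as were 49.7% over all genes. There 12 genes had both KO animals above both WT animals, against 17.4% of all genes, and the median was 1.25. The members were chosen with earlier results of these data known, so the counts describe the list and test nothing. DESeq2 called Sln, Myl4, Myl7 and Nppa of the 17 in all CM wells, and Sln, Myl4 and Myl7 in cardiomyocyte-like wells.

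The natriuretic peptides, hormones secreted by strained heart muscle, came first. Nppa, which encodes atrial natriuretic peptide and lies on chromosome 4 from 148000722 to 148002079 (mm10), stood at 117 and 165 CPM in the WT animals and 512 and 460 CPM in the KO animals. The difference was 1.79 on the log2 scale (SE 0.396, unadjusted p 0.00406, edgeR adjusted p 0.999). Nppb, the B-type peptide, had 185 and 272 CPM in the WT against 470 and 533 in the KO animals, a difference of 1.13 (SE 0.400, unadjusted p 0.0296). Neither peptide overlapped between the genotypes. In cardiomyocyte-like wells alone Nppa stood at 201, 221, 907 and 447 CPM in WT1, WT2, KO1 and KO2, and Nppb at 298, 278, 691 and 498 CPM. The KO animals stayed on the upper side there, with KO1 the highest for both.

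For several actins and proteins that anchor the sarcomere, both KO animals also stood above both WT animals. Acta1, skeletal alpha-actin, had 258 and 308 CPM in the WT against 666 and 459 in the KO animals (log2 0.99, SE 0.403). Acta2, smooth muscle alpha-actin, had 165 and 161 CPM in the WT against 617 and 254 in the KO animals (log2 1.42, SE 0.517). The coding sequences of Acta1, Acta2 and Actc1 are close to identical, and how the authors' counting divided shared reads between them is uncertain. Xirp2, an actin-binding protein of the intercalated disc on chromosome 2 from 67446002 to 67526614, had 213 and 300.3 CPM in the WT against 744 and 614 in the KO animals (log2 1.41, SE 0.407). Des, the muscle intermediate filament desmin, had 143 and 182 CPM in the WT against 406 and 445 in the KO animals (log2 1.39, SE 0.375). Both animals of each genotype lay close together for Des and Xirp2, and far apart in KO for Acta2. Fhl1, a LIM-domain protein of the sarcomere, had 49.96 and 60.4 CPM in the WT against 173 and 162 in the KO animals (log2 1.61, SE 0.354). Rcan1, an inhibitor of calcineurin, had 34.1 and 25.7 CPM in the WT against 50.9 and 66.8 in the KO animals (log2 0.98, SE 0.381).

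Other members of the list did not part the genotypes. Myh7, the slow myosin heavy chain that marks the fetal programme in mouse ventricle, had 81.2 and 171 CPM in the WT against 104 and 208 in the KO animals. Its difference of 0.31 (SE 0.539) was smaller than its error. Ankrd1, a stress-responsive titin-binding protein and a YAP target, had 931 and 1187 CPM in the WT against 1132 and 1860 in the KO animals (log2 0.50, SE 0.453). Actc1, cardiac alpha-actin (log2 0.25), the intermediate filament gene Vim (0.41), Xirp1 (0.28) and Tnni1 overlapped between the genotypes as well. For Myh7 the order of the animals was WT1, KO1, WT2, KO2, so that the fetal myosin and the fetal peptides did not go together in these animals.

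**Figure D2:**
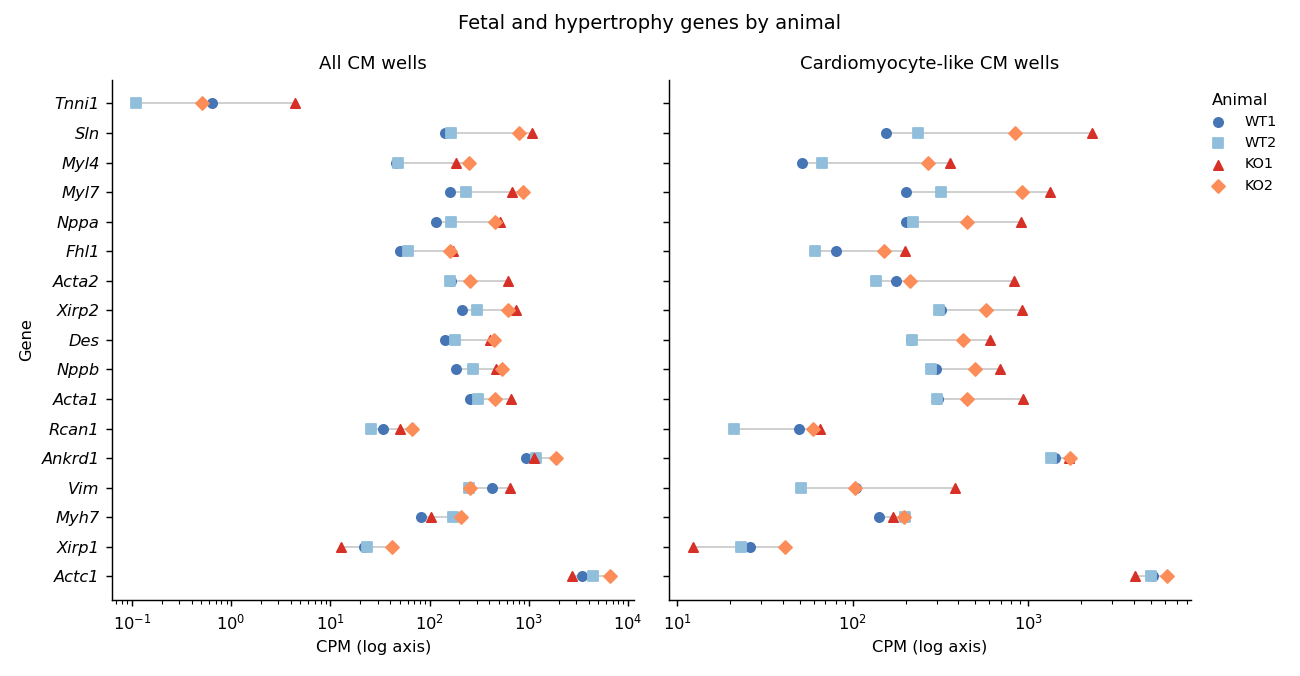
Level of each of the 17 fetal and hypertrophy genes in each animal, in CPM on a log axis, in all CM wells (left) and in cardiomyocyte-like wells (right). For 11 genes on the left both KO symbols lie right of both WT symbols, and Myh7, Ankrd1, Vim, Xirp1, Actc1 and Tnni1 are the exceptions.

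Genes of the atrial chamber, of which Sln, Myl7, Myl4 and Nppa are also on the fetal list, stood apart as well. Of 12 tested in all CM wells, 7 had both KO animals above both WT animals, against 15.8% of all genes, and the median log2 difference was 1.75. Sln encodes sarcolipin, a small inhibitor of the calcium pump that adult mice make mainly in atria, and lies on chromosome 9 from 53850164 to 53854560. It had 143 and 166 CPM in the WT against 1071 and 793 in the KO animals (log2 2.59, SE 0.417, unadjusted p 0.000793, edgeR adjusted p 0.999). Myl7, the atrial regulatory light chain, had 162 and 235 CPM in the WT against 685 and 869 in the KO animals (log2 1.97, SE 0.423). Myl4 encodes the essential light chain of atria and had 45.9 and 48.3 CPM in the WT against 185 and 252 in the KO animals (log2 2.21, SE 0.378). Mybphl, a myosin-binding protein of atria, is not on the atrial list and had been placed on the ventricular list. It was named after its values were seen, with 1.73 and 3.42 CPM in the WT animals and 20.7 in each KO animal (log2 3.01, SE 0.538). Not every gene of the atrial list went that way: Kcnj3, an atrial potassium channel subunit, had 25.2 and 45.6 CPM in the WT against 9.12 and 22.0 in the KO animals (log2 -1.18, SE 0.571).

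In KO1 few wells carried much of this atrial RNA, whereas in KO2 it was spread over more wells. The cluster led by Sln, Myl7, Myl4 and Nppa held 0 wells of WT1, 4 of WT2, 2 of KO1 and 10 of KO2. In KO1 a single well gave 66.9% of all Sln UMIs, 51.5% of Myl4, 49.3% of Myl7 and 38.5% of Nppa. In KO2 the highest well gave 11.3% of Sln. Without the wells of the atrial cluster, a choice made after the values were seen, the log2 differences in cardiomyocyte-like wells went from 3.02 to 1.94 for Sln, from 2.40 to 1.49 for Myl4, from 2.12 to 1.47 for Myl7 and from 1.68 to 1.04 for Nppa. Xirp2 went from 1.24 to 1.34, so that it did not depend on those wells. The 4 atrial marker genes together made up 0.107%, 0.143%, 1.18% and 0.430% of the UMIs of cardiomyocyte-like wells in WT1, WT2, KO1 and KO2, and the part of sampled atrial tissue in these differences was not tested beyond this.

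The typical well separated the 2 groups of genes. In cardiomyocyte-like wells the median Nppa level, in UMIs per 10000 UMIs of a well, was 0.92 in WT1, 0.79 in WT2, 3.93 in KO1 and 3.75 in KO2. The median Nppb level was 1.91, 2.24, 5.32 and 4.19, that of Xirp2 1.93, 2.54, 8.40 and 4.64, and that of Des 1.44, 1.73, 4.17 and 3.58. For these 4 genes the middle well of both KO animals lay above that of both WT animals. For Sln the median was 0.05, 0, 0.25 and 3.21, for Myl7 0.41, 0.08, 0.49 and 3.85, and for Myl4 0, 0, 0.09 and 0.65. For these atrial genes the middle well of KO1 lay near those of the WT animals, and KO2 alone stood apart. Since KO2 wells of other classes carried Sln and Myl7 too, these medians are not read as expression by each muscle cell.

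**Figure D3:**
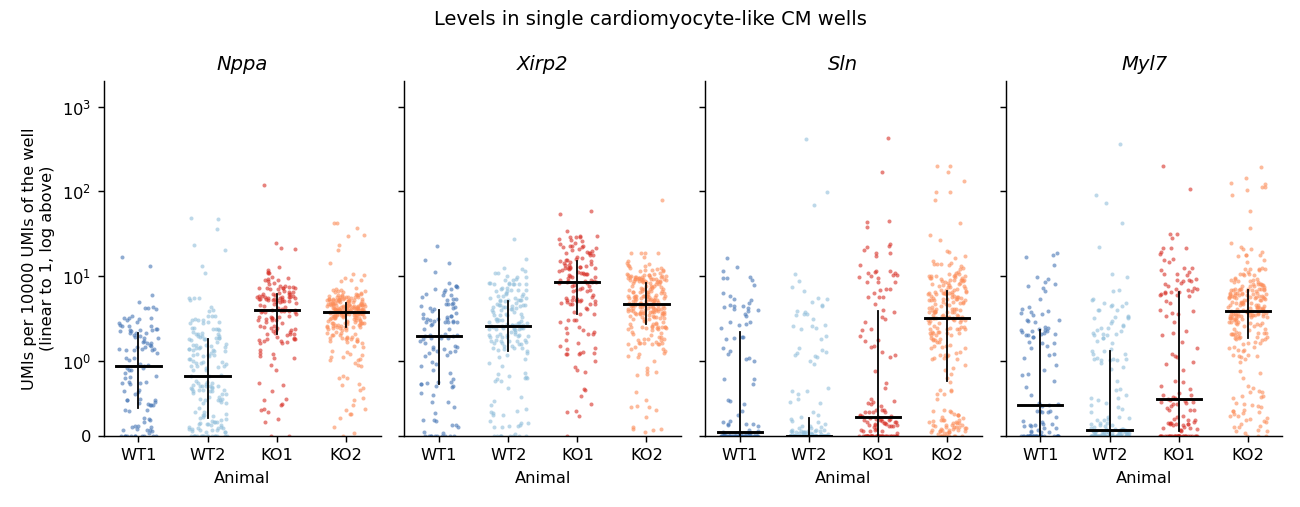
Level of Nppa, Xirp2, Sln and Myl7 in each cardiomyocyte-like CM well, in UMIs per 10000 UMIs of the well, on an axis that is linear to 1 and logarithmic above; horizontal bars are medians and vertical bars quartiles. The Nppa medians are 0.92 and 0.79 in WT and 3.93 and 3.75 in KO, whereas the Sln median is 0.25 in KO1 and 3.21 in KO2 with single wells far above the rest.

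Muscle RNA was also found in wells of other classes. After each well was thinned to 10000 UMIs, Nppa was found in 57.7% and 54.0% of WT cardiomyocyte-like wells and in 89.1% and 89.0% of KO wells. It was found in 44.4% and 32% of WT macrophage-like wells and in 78.3% and 90.5% of KO macrophage-like wells, a cell type that should lack it. Unthinned, Nppa was found in 90.1%, 90.2%, 98.6% and 99.6% of cardiomyocyte-like wells of WT1, WT2, KO1 and KO2, whose median depths are close to those of the whole fraction, and in 91.7%, 80.0%, 95.7% and 100% of macrophage-like wells, at median depths of 167304, 175658, 151829 and 188026 UMIs. How muscle RNA came into those wells was not tested, and the shares of wells, near those of macrophage-like wells, are not read as expression. The level did differ: a thinned cardiomyocyte-like well held a mean of 1.38, 2.15, 5.48 and 4.59 Nppa UMIs, and a thinned macrophage-like well 0.611, 0.480, 1.83 and 3.52. In the wells outside the class Nppa had 65.2 and 68.9 CPM in the WT against 225 and 343 in the KO animals, so that the difference between genotypes was also present in the RNA those wells carried.

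The promoters of the list were read for the TEAD core motif, because TEAD factors are the DNA-binding partners of YAP and TAZ. The motif searched was CATTCC on both strands, in the 250 bases before each RefSeq gene start (GRCm38.p6). It occurred in 12.6% of 32851 promoters, and in 6 of 19 promoters of the fetal and hypertrophy list, for which 15 of 17 genes were matched. The 6 genes were Nppb, Myh7, Acta1, Ankrd1, Acta2 and Myl7. Both KO animals stood above both WT animals for 4 of these 6, and for 6 of the 9 matched genes without the motif. The promoters of 4 genes of unlike behaviour are shown 5' to 3' on the strand of the gene, with the motif or its reverse complement GGAATG in capitals. Nppa (chr4:148000472-148000721, plus strand) has no match although its level parted the genotypes. Acta1 (chr8:123894776-123895025, minus) and Myl7 (chr11:5898783-5899032, minus) have one match each, 46 and 70 bases before the start. Myh7 (chr14:54994627-54994876, minus) has one 201 bases before the start although its level did not part the genotypes. A match is a string of letters and no evidence of binding.
Nppa: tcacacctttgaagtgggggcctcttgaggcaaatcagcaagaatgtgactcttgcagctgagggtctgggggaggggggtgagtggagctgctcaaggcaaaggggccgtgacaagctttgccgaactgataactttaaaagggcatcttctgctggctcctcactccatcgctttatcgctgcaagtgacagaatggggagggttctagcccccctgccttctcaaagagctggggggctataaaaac
Acta1: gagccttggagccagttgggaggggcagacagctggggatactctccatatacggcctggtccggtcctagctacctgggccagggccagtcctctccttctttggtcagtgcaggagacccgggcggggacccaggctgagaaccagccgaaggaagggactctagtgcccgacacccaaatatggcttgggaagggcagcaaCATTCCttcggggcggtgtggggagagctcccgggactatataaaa
Myl7: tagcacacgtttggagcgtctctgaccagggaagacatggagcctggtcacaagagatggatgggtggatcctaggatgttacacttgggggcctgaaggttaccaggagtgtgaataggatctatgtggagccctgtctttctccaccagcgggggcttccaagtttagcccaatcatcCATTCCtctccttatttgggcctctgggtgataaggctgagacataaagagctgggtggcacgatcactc
Myh7: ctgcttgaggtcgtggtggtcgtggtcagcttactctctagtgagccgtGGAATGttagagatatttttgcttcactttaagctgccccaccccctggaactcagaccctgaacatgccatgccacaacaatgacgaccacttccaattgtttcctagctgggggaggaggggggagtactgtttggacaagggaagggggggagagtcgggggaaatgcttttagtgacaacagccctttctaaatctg

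The kinases named in the genotype could not be used to check it. Stk4, on chromosome 2 from 164070322 to 164155524, had 19.01 and 9.44 CPM in the WT against 8.78 and 6.44 in the KO animals (log2 -0.90, SE 0.530, unadjusted p 0.139). Stk3, on chromosome 15 from 34875496 to 35178921, had 7.46 and 9.18 CPM in the WT against 15.3 and 8.24 in the KO animals (log2 0.50, SE 0.511). In cardiomyocyte-like wells Stk4 stood at 3.95, 5.01, 9.34 and 4.39 CPM, a difference of 0.61 that became -1.85 in wells with little marker RNA of other cells and -0.019 without KO1. In the remaining wells it had 32.4 and 15.6 CPM in the WT against 8.75 and 9.39 in the KO animals, and thinned wells of the whole fraction gave a difference of 0.12. The labels do not say which exons were removed, and a count over the whole gene cannot show a deletion of part of it.

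Genes of the Hippo pathway, Stk4 and Stk3 among them, and its transcription factors lay on both sides. Of 16 tested members of the Hippo core and its upstream regulators, 3 had both KO animals above and 5 below both WT animals in all CM wells. Of all genes there, 15.8% were above and 15.1% below. The median difference of the list was 0.19. In cardiomyocyte-like wells 4 of 16 were above (17.4% of all genes) and 1 below (17.7%), with a median of -0.055. Among YAP, TAZ and the TEAD factors the median was -0.38 over 8 genes in all CM wells and 0.28 over 7 genes in cardiomyocyte-like wells. Yap1 (log2 -0.23) and Wwtr1, which encodes TAZ (0.23), overlapped between the genotypes. Tead1, the main TEAD factor of heart muscle, had 46.1 and 54.2 CPM in the WT against 27.6 and 41.4 in the KO animals. In cardiomyocyte-like wells it had 56.2 and 64.7 CPM in the WT against 30.5 and 32.5 in the KO animals (log2 -0.94, SE 0.390, unadjusted p 0.0463, edgeR adjusted p 0.963).

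Single targets of YAP and TAZ went in both directions. Of 22 tested in all CM wells, 6 had both KO animals above (15.8% of all genes) and 2 below both WT animals (15.1%), and the median was -0.14. In cardiomyocyte-like wells 7 of 21 were above (17.4% of all genes) and 2 below (17.7%), and the median was 0.16. The list's median deviation from each gene's mean over the animals was -0.19 in WT1, 0.053 in WT2, 0.27 in KO1 and 0.16 in KO2 there. Ccn2, a matricellular protein and the target most often measured, had 45.3 and 48.5 CPM in the WT against 95.95 and 98.5 in the KO animals (log2 1.05, SE 0.341, unadjusted p 0.0216). In cardiomyocyte-like wells it stood at 47.0, 31.4, 81.3 and 89.1 CPM (log2 1.12, SE 0.406). Ccn1, its relative, had 26.9 and 36.1 CPM in the WT against 49.8 and 50.3 in the KO animals (log2 0.67, SE 0.365). The growth factor gene Tgfb2 had 10.004 and 7.17 CPM in the WT against 35.1 and 18.3 in the KO animals (log2 1.63, SE 0.498), with 51.7% of the KO1 UMIs in 1 well. Ptpn14, a phosphatase that binds YAP, went the other way, with 15.3 and 12.2 CPM in the WT against 5.90 and 5.50 in the KO animals (log2 -1.27, SE 0.455).

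The leukotriene B4 receptor named in the title was close to silent in this fraction. Ltb4r1 had 3 UMIs in WT1, 2 in WT2, 9 in KO1 and 8 in KO2 and was too low to test. Of 24 tested leukotriene and prostanoid genes, 0 had both KO animals above (15.8% of all genes) and 3 had both below (15.1%), with a median of -0.48. In cardiomyocyte-like wells 3 of 19 had both above (17.4% of all genes) and 1 had both below (17.7%), with a median of -0.29. Ltc4s, the enzyme that makes leukotriene C4, had 18.5 and 14.4 CPM in the WT against 13.3 and 7.41 in the KO animals. Alox5ap, the 5-lipoxygenase activating protein of leukocytes, had 115 and 53.7 CPM in the WT against 106 and 22.9 in the KO animals and overlapped.

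Genes of the working muscle cell were lowest in KO1, with KO2 close to the WT animals for the lists as a whole. In cardiomyocyte-like wells 43 of 44 nuclear genes of the respiratory chain had a negative difference, with a median of -0.51, and 12 had both KO animals below both WT animals, against 17.7% of all genes. As deviations from each gene's mean over the 4 animals, the median of that list was 0.26 in WT1, 0.47 in WT2, -1.10 in KO1 and 0.34 in KO2. Fatty acid oxidation genes gave 0.37, 0.52, -1.14 and 0.32 in the same order, and 17 of 30 had both KO animals below (17.7% of all genes). In both lists KO2 lay within or next to the WT range. Without KO1 the list medians were -0.0019 and -0.11, and without KO2 they were -1.39 and -1.57. In all CM wells the separation was absent. There 0 of 44 respiratory chain and 1 of 30 fatty acid oxidation genes had both KO animals below (15.1% of all genes). KO2 was the highest animal of both lists there, with median deviations of 0.64 and 0.62. Cardiomyocyte-like wells of KO1 had a median mitochondrially encoded share of 58.9%, against 38.0% in WT1, 37.4% in WT2 and 36.8% in KO2, and a median of 60599 UMIs; the part of RNA quality and depth in these lists was not tested.

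Single genes of contraction and conduction were also lowest in KO1. Fabp3, the fatty acid carrier of heart muscle, stood at 5318 and 5695 CPM in WT, at 1207 CPM in KO1 and at 5150 CPM in KO2. Myl2, the ventricular regulatory light chain, stood at 4858, 6826, 1351 and 4388 CPM in WT1, WT2, KO1 and KO2. Pln, phospholamban, the main brake on the calcium pump, stood at 1840, 2537, 351 and 1488 CPM. Gja1, the gap junction protein connexin 43, stood at 156.5, 159, 21.3 and 110.3 CPM. For each of these 4 genes both KO animals lay below both WT animals, with the KO1 value several times lower than that of KO2. Myh6, the main adult myosin heavy chain, overlapped, at 4129, 6219, 2145 and 5395 CPM.

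Other single genes also had both KO animals on one side of both WT animals, and each of those given here lay furthest from WT in KO1. Dsc2, a desmosomal cadherin of the intercalated disc, had 13.6 and 17.5 CPM in the WT against 1.83 and 4.51 in the KO animals cardiomyocyte-like wells (log2 -2.27, SE 0.734, unadjusted p 0.0173). Cacna2d1, a calcium channel subunit, had 61.0 and 53.8 CPM in the WT against 19.3 and 31.3 in the KO animals (log2 -1.18, SE 0.437). Camk2d, the calmodulin-dependent kinase of heart muscle, had 77.1 and 52.7 CPM in the WT against 17.6 and 36.1 in the KO animals (log2 -1.27, SE 0.498). Sri, which encodes the ryanodine receptor regulator sorcin, went the other way, with 27.9 and 25.8 CPM in the WT against 136 and 63.4 in the KO animals (log2 1.89, SE 0.486, unadjusted p 0.0059). Each of these had an edgeR adjusted p of 0.963. Of the whole calcium cycling list, 9 of 24 genes had both KO animals below (17.7% of all genes) and 6 had both above (17.4%), with a median of -0.48. Of 23 ion channel and intercalated disc genes, 11 had both KO animals below (17.7% of all genes) and 1 had both above (17.4%), with a median of -0.80. As deviations from each gene's mean over the animals, the calcium cycling median was 0.14 in WT1, 0.32 in WT2, -0.55 in KO1 and 0.11 in KO2. For ion channels and intercalated disc it was 0.30, 0.58, -0.90 and 0.054 in the same order.

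**Figure D4:**
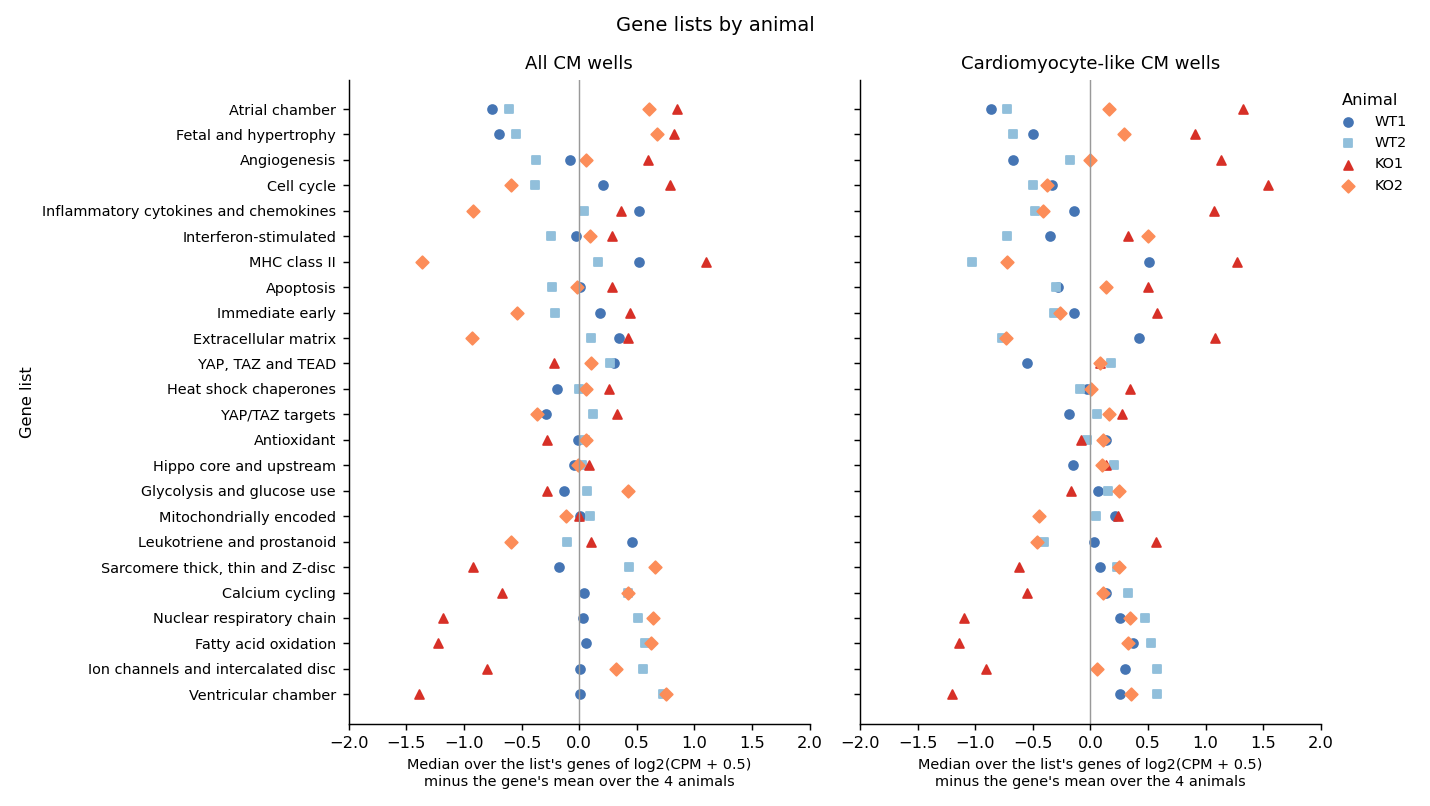
Median over the tested genes of each list of log2(CPM + 0.5) minus that gene's mean over the 4 animals, for all CM wells (left) and cardiomyocyte-like wells (right). The atrial and fetal lists place both KO animals right of both WT animals, as do the angiogenesis, interferon-stimulated and heat shock chaperone lists. In cardiomyocyte-like wells the YAP/TAZ target and apoptosis lists do so too. The ventricular, fatty acid oxidation and respiratory chain lists place KO1 alone far left, for instance at -1.10 for the respiratory chain in cardiomyocyte-like wells.

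Smooth muscle genes headed the genes named by rank, an order by size of difference that left out haemoglobin genes among others. Myh11, the smooth muscle myosin heavy chain on chromosome 16 from 14194535 to 14291372, had 1.18 and 2.82 CPM in the WT against 73.6 and 22.8 in the KO animals in all CM wells (log2 4.58, SE 0.802, unadjusted p 0.00125, edgeR adjusted p 0.999). In cardiomyocyte-like wells it stood at 0.82, 1.32, 127 and 22.2 CPM (log2 6.09, SE 0.969). Unthinned, Myh11 was found in 0.90% of these wells in WT1, 5.17% in WT2, 16.7% in KO1 and 18.3% in KO2. Its level there came from a minority of the wells in each animal. Myl9, a regulatory light chain of smooth muscle, had 26.6 and 17.4 CPM in the WT against 440 and 75.8 in the KO animals cardiomyocyte-like wells. Tagln, Mylk and Tpm2, a calponin-like protein, the myosin light chain kinase and beta-tropomyosin, were also among the 12 higher genes named there. KO1 was the highest animal for all 5. The 7 smooth muscle markers together made up 0.0379%, 0.0298%, 0.2754% and 0.0530% of the UMIs of these wells in WT1, WT2, KO1 and KO2, with 0 markers at 0 in any animal. Endothelial markers made up 0.0195%, 0.0301%, 0.1118% and 0.0351%. What part smooth muscle or endothelial RNA had in these levels was not tested.

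When the CM wells were clustered alone, an unnamed cluster with Myl9, Higd1b and Myh11 among its leading genes held 115 of 246 KO2 cardiomyocyte-like wells (46.7%), 11 of 138 in KO1, 4 of 111 in WT1 and 9 of 174 in WT2. A cluster led by Acta1, Cryab, Tcap, Csrp3 and Sprr1a held 64.5% of the KO1 wells, 43.2% of the WT1 wells, 20.1% of the WT2 wells and 2.85% of the KO2 wells. WT2 was held most by a cluster led by Atp2a2, Ttn and Myh6, with 39.7%. The leading cluster was thus shared by WT1 and KO1 and differed for WT2 and KO2, and a cluster of nearly 1 animal cannot be told apart from that animal.

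Beyond these, the genes named by rank in all CM wells were of mixed function. Sprr1a, a small proline-rich protein made by stressed heart muscle, had 55.0 and 66.4 CPM in the WT against 297 and 193 in the KO animals (log2 2.01, SE 0.406, unadjusted p 0.00255), and in wells outside the muscle class at 42.5, 63.8, 230.3 and 140 CPM. Pgf, placental growth factor, had 1.85 and 6.00 CPM in the WT against 29.6 and 26.2 in the KO animals (log2 2.82, SE 0.653). Timp4, an inhibitor of metalloproteinases abundant in heart, had 5.79 and 19.8 CPM in the WT against 77.0 and 41.0 in the KO animals (log2 2.20, SE 0.687). Spon1, Nxn, Terf2ip and Mustn1 had differences of 2.22, 2.14, 2.02 and 1.98, and 79.0% of the Terf2ip UMIs of KO1 came from 1 well. In each case both KO animals lay above both WT animals, as the naming rule required.

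The 12 genes named as lower in KO in all CM wells included Mrc1, Ccl4, Sfrp1 and Lars2. Mrc1, the mannose receptor of resident macrophages, had 88.0 and 39.6 CPM in the WT against 29.5 and 15.4 in the KO animals (log2 -1.51, SE 0.556). The chemokine Ccl4 had 815 and 516 CPM in the WT against 340 and 116 in the KO animals (log2 -1.55, SE 0.614). Ccl3, Aif1, Cd52, Cbr2, Slamf9 and the ficolin gene Fcna were named as well, with differences between -2.47 for Fcna and -1.46 for Ccl3. Macrophage markers together made up 0.780%, 0.245%, 0.523% and 0.0808% of all UMIs in WT1, WT2, KO1 and KO2, an order that did not part the genotypes, and macrophage-like wells made up a smaller share in KO, as given above. Sfrp1, a secreted Wnt antagonist, had 22.0 and 14.9 CPM in the WT against 5.42 and 4.47 in the KO animals (log2 -1.90, SE 0.467). Lars2, the mitochondrial leucyl-tRNA synthetase, had 92.5 and 62.6 CPM in the WT against 33.3 and 20.1 in the KO animals (log2 -1.54, SE 0.439); its transcript resembles the mitochondrial large ribosomal RNA and its level is uncertain.

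In cardiomyocyte-like wells the higher genes named by rank included Ccnd1, Nes and Angptl4. Ccnd1, cyclin D1, had 4.40 and 6.86 CPM in the WT against 75.2 and 14.5 in the KO animals (log2 2.98, SE 0.823). The proliferation marker Mki67 had 2.98 and 5.65 CPM in the WT against 30.7 and 14.9 in the KO animals (log2 2.39, SE 0.681), and the cell cycle inhibitor Cdkn1a with 29.2 and 24.2 CPM in the WT against 62.4 and 56.3 in the KO animals (log2 1.15, SE 0.399). Of 23 cell cycle genes tested there, 6 had both KO animals above (17.4% of all genes) and 2 below (17.7%), with a median of 1.15, and the list's median deviation was 1.54 in KO1 and within the WT range in KO2. In all CM wells 3 of 26 were above (15.8%) and 1 below (15.1%), with a median of 0.30 and KO2 the lowest animal. Endothelial, fibroblast and macrophage markers made up a median of 0.096%, 0.044%, 0.139% and 0.048% of a cardiomyocyte-like well in WT1, WT2, KO1 and KO2. The part of such RNA in the levels of these wells was not tested. Nes, the intermediate filament nestin, had 5.59 and 2.67 CPM in the WT against 61.7 and 14.97 in the KO animals (log2 3.22, SE 0.821). Angptl4, a lipoprotein lipase inhibitor, had 2.84 and 2.17 CPM in the WT against 12.3 and 25.8 in the KO animals (log2 2.93, SE 0.703). Angptl4 was the one of these in which KO2 stood above KO1.

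The 12 lower genes named in cardiomyocyte-like wells included Pla2g12a, G0s2, Rxra and Stk38. Pla2g12a, a secreted phospholipase, had 48.9 and 28.9 CPM in the WT against 5.32 and 10.5 in the KO animals (log2 -2.29, SE 0.575, unadjusted p 0.00529). G0s2, an inhibitor of fat cell lipase, had 37.7 and 36.5 CPM in the WT against 2.88 and 16.4 in the KO animals (log2 -1.93, SE 0.788). Rxra, a nuclear receptor that pairs with PPAR factors, had 21.6 and 15.1 CPM in the WT against 4.71 and 7.17 in the KO animals (log2 -1.62, SE 0.607). Stk38, a kinase related to LATS, had 21.5 and 20.01 CPM in the WT against 4.80 and 8.70 in the KO animals (log2 -1.61, SE 0.590). All 4 were lowest in KO1.

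Of 28 angiogenesis genes tested in all CM wells, 11 had both KO animals above (15.8% of all genes) and 1 below both WT animals (15.1%), with a median of 0.53. Notch4, an endothelial receptor, had 5.34 and 5.23 CPM in the WT against 16.7 and 13.4 in the KO animals (log2 1.51, SE 0.450), and Esam, an endothelial adhesion molecule, with 32.8 and 19.1 CPM in the WT against 86.5 and 49.0 in the KO animals (log2 1.38, SE 0.479). Endothelial-like wells made up a larger share in KO, as given above, whereas the 12 endothelial markers together made up 0.102%, 0.0825%, 0.202% and 0.0819% of all UMIs in WT1, WT2, KO1 and KO2 and did not part the genotypes. Of 27 interferon-stimulated genes in all CM wells, 8 had both KO animals above (15.8% of all genes) and 1 below (15.1%), with a median of 0.20. In cardiomyocyte-like wells 13 of 24 had both above (17.4% of all genes) and 1 below (17.7%), with a median of 0.83; Ifitm3, a restriction factor against viral entry, stood at 178, 138, 546 and 205 CPM in WT1, WT2, KO1 and KO2. Haemoglobin genes stood far apart between genotypes: Hba-a1 had 5.18 and 11.3 CPM in the WT against 451 and 1610 in the KO animals, with 68.7% of the KO1 UMIs and 40.1% of the KO2 UMIs in 1 well each.

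The difference between genotypes was set against that in the NCM fraction of the same animals, in a fit over 8 sums with the animal as a block. Mitochondrially encoded RNA made up 7.45% and 11.2% of the NCM UMIs in WT and 58.1% and 36.5% in KO, and its part in the NCM effects was not tested. By edgeR's test 0 of 17891 genes (0%) had an adjusted p under 0.05 for the difference of the 2 effects, and 892 (4.99%) had an unadjusted p under 0.05; DESeq2 called 139. For Nppa the log2 difference KO minus WT was 1.80 in the CM fraction and 1.69 in the NCM fraction, and the blocked fit gave a difference of -0.18 (SE 0.693, unadjusted p 0.804). For Sln the effects were 2.58 and 2.76, and the blocked fit, which weighs the animals otherwise than a subtraction of the 2 effects, gave -0.90 (SE 0.709, unadjusted p 0.240). Neither gene's effect could be told apart between the fractions, although Sln stood at 1.21 and 0.401 CPM in the WT and 5.81 and 10.8 CPM in the KO samples of the NCM fraction. For Myh11 the effect was 4.19 in the CM fraction and 0.68 in the NCM fraction, a difference of 3.77 (SE 0.772, unadjusted p 0.00136, adjusted p 0.716). For Xirp2 it was 1.42 and 2.86, a difference of -1.56 (SE 0.429, unadjusted p 0.00718, adjusted p 0.953). Over the fetal and hypertrophy list the median was 1.28 in the CM fraction and 1.22 in the NCM fraction over 17 genes, and the median of the fitted differences between fractions was -0.57, with an unadjusted p under 0.05 for 4 of the 17.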

How the data were processed

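Single wells of dissociated mouse heart were sequenced on 4 chips, of which 2 held the cardiomyocyte fraction. The deposited values are UMI counts per gene and well made by the authors; STAR 2.5.2b, featureCounts and Subread 1.4.6-p1 with mm10 are named in the submitters' processing notes, which give no role or order. Here wells under 10000 UMIs or 300 genes and control wells were dropped, and wells were clustered with scanpy 1.11.5 (2000 variable genes, 30 components, resolution 1). Counts were summed per animal and tested with edgeR 4.0.16 (TMM scaling, filterByExpr, quasi-likelihood, Benjamini-Hochberg). DESeq2 1.42.0, other scalings, filters, well sets and each animal left out were alternatives. Scrublet marked 5 wells in each WT animal and 0 in each KO animal, and none were removed in the values given. Positions are from GENCODE on mm10. Members and gene lists were chosen with earlier results of these data known. Genes outside the lists were named by rank: up to 12 per direction, unadjusted p under 0.05, a mean of at least 10 CPM, no overlap between genotypes, UMIs in at least 20 wells of each animal of the higher group, and no mitochondrial, haemoglobin, ribosomal, Gm, Rik or pseudogenes.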

Additional observations from a re-analysis of the deposited data

How the results depend on the processing

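By edgeR 0 genes passed in the main fits. In all CM wells DESeq2 called 54 genes, a fit without the filter on low counts 50, and the animal number as a replicate block 5; in cardiomyocyte-like wells they called 85, 93 and 1, and for the difference between fractions DESeq2 called 139. Leaving out 1 animal in turn gave 0 to 4 calls in all CM wells, 4 to 263 in cardiomyocyte-like wells (12 without WT1, 14 without WT2, 4 without KO1, 263 without KO2) and 0 to 49 for the difference between fractions; where a genotype then had 1 animal, it was assumed to vary like the other. The cause was not tested. Library totals in place of TMM moved the median of all genes to 0.76 on the log2 scale for the difference between fractions. Whether animal numbers pair WT with KO animals cannot be decided from 2 pairs. Deviations of same-numbered animals correlated at 0.273 in all CM wells and 0.121 in cardiomyocyte-like wells over genes. The cardiomyocyte-like difference in share was 1.48 points at clustering resolution 2, -12.5 with the CM wells clustered alone, and -5.91 to 5.72 without 1 animal; the difference in mitochondrially encoded share was -0.45 to 10.3 points without 1 animal.
Of 59 genes tried in all CM wells and 72 in cardiomyocyte-like wells, 8 in each changed sign under some alternative. In all CM wells Stk4 became 0.12 on thinned wells. In cardiomyocyte-like wells, with wells of little foreign marker RNA, Ccn1 became -0.090, Kcnj3 0.28, Myh7 -0.15, Stk3 -0.22, Stk4 -1.85 and Xirp1 -0.34. With the class taken from the CM wells alone, Stk3 became -0.22 and Xirp1 -0.031; with the replicate block, Actc1 became -0.018 and Xirp1 -0.12; with wells of at most 60% mitochondrial UMIs, Actc1 became -0.042. Without 1 animal the range in all CM wells was -0.54 to 0.77 for Actc1, -1.86 to 0.32 for Alox5ap, -0.29 to 0.95 for Myh7, -0.39 to 0.91 for Vim, -0.27 to 0.98 for Wwtr1, -0.81 to 0.91 for Xirp1 and -0.69 to 0.13 for Yap1. In cardiomyocyte-like wells it was -0.29 to 0.29 for Actc1, -1.24 to 0.073 for Myh6, -0.13 to 0.36 for Myh7, -0.19 to 1.06 for Stk3, -0.019 to 1.08 for Stk4 and -0.97 to 0.75 for Xirp1. The fetal and hypertrophy median in cardiomyocyte-like wells was 0.78 without KO1 and 1.57 without KO2. KO1 had the fewest UMIs, so genes of few CPM rest on the fewest counts there.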

Other observations

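Some transcripts outside every gene list were low in the KO animals of both fractions; they were chosen after their values were seen, and their CPM are scaled over the 8 sums of both fractions. ENSMUSG00000095406 stood at 29.6 and 58.4 CPM in the WT and 0.60 and 0.63 CPM in the KO animals of the CM fraction, and at 25.6, 39.3, 0.64 and 1.33 CPM in WT1, WT2, KO1 and KO2 of the NCM fraction. Processed pseudogenes on chromosome 11 had the same order. Rps13-ps5 (61205720 to 61206175) stood at 43.2, 46.4, 3.997 and 6.08 CPM in the CM fraction and at 35.6, 32.9, 5.28 and 4.56 CPM in the NCM fraction. Rps15a-ps6 (6172644 to 6173036) stood at 29.1, 31.0, 3.70 and 4.295 CPM in the CM fraction and at 36.0, 32.04, 5.03 and 4.998 CPM in the NCM fraction. Gm12091 (29601784 to 29602613) stood at 19.9, 37.3, 2.59 and 3.26 CPM in the CM fraction and at 19.1, 28.3, 3.004 and 2.77 CPM in the NCM fraction. Reads of processed pseudogenes can be shared with their parent genes, and their counts are uncertain.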
